A study of Mus musculus with 10 samples.

Results

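The Schlafen genes of the mouse were described as a family of 7 members, Slfn1, Slfn2, Slfn3, Slfn4, Slfn5, Slfn8 and Slfn9, chosen by gene symbol from expression tables that held 22923 distinct symbols. Levels came from RNA sequencing of 5 sorted cell populations of C57bl/6 mice aged 4 weeks. From bone marrow these were mature granulocytes, small pre-B cells and large pre-B cells, and from thymus they were quiescent and cycling CD4+CD8+ thymocytes. Each population was sequenced once from 2 pooled CKO mice, labelled Dyrk1a -/- and Mx1-Cre+, and once from 2 pooled control mice, labelled Dyrk1a flox/flox and Mx1-Cre-. The 10 libraries thus held 1 library per population and genotype, and the 5 libraries of a genotype came from 1 pool. Cre under the Mx1 promoter is switched on by interferon in blood-forming cells and in other tissues. How and when it was switched on is not given in the labels, and neither is the deleted part of Dyrk1a, which encodes a protein kinase that acts on cell-cycle regulators. The pre-B samples are titled by size. Small pre-B cells are the resting stage that follows the dividing large pre-B cells, so quiescent and cycling cells could be compared in 2 lineages.

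Schlafen genes are named after the German word for sleeping, because Slfn1, the founding member, held back growth when overexpressed in mouse thymocytes. Slfn2 is needed for the quiescence of mouse T cells: in mice with the elektra mutation of Slfn2, resting lymphocytes enter a semi-activated state and die when stimulated. The family divides by protein size into short members (Slfn1 and Slfn2), intermediate members (Slfn3 and Slfn4) and long members with a helicase-like domain (Slfn5, Slfn8 and Slfn9). Type I interferon raises the transcripts of several members, and Slfn4 is best known from macrophages and other myeloid cells.

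Values are FPKM, fragment counts scaled to transcript length and library size, a unit inferred from the tools the submitters name and from the values. FPKM is scaled to transcript length, so levels of different members are set side by side. Stretches of transcript shared between members, given below, limit that comparison. The deposited values summed to 360394 to 431868 in the lymphoid libraries and to 1074258 and 830006 in the CKO and control granulocytes. Sequencing depth is unknown. Dyrk1a itself stood at 34.4 to 44.7 FPKM in the CKO libraries and at 31.2 to 37.4 FPKM in the control libraries, and it was not lower in any CKO library than in its control. Reads from outside the deleted part count toward that value, so it does not check the genotype, and every genotype difference below takes its direction from the labels. The sorted populations held their own markers: the 7 thymocyte markers summed to 2694 to 3973 FPKM in thymocytes, and the 7 pre-B markers to 1732 to 3545 FPKM in pre-B cells. Granulocytes held Ltf, a granule protein gene, at 11976 and 14240 FPKM in CKO and control, but S100a9 was listed at 0 in both of their libraries and S100a8 and Ngp at 0 in control granulocytes, so a value of 0 can be a failed estimate. Lists of other cell types differed between CKO and control libraries of the same population. In small pre-B cells natural killer markers summed to 80.7 FPKM in the CKO and 8.76 FPKM in the control library. Plasmacytoid dendritic cell markers summed to 412 and 118 FPKM, and monocyte markers to 140.1 and 14.5 FPKM. Of the plasmacytoid markers Irf8 (212 and 92.5 FPKM) and Bst2 (134 and 21.1 FPKM) were highest there. Siglech stood at 41.5 and 2.25 FPKM. Irf8 also stood at 82.5 and 81.0 FPKM in CKO and control large pre-B cells, and Bst2 is on the interferon-stimulated list below. In CKO and control quiescent thymocytes the plasmacytoid markers summed to 292 and 391 FPKM, with Ccr9 at 265 and 365 FPKM. Their sum thus does not measure 1 cell type. In large pre-B cells granulocyte markers summed to 435 FPKM in the CKO and 826 FPKM in the control library, and in granulocytes thymocyte markers to 2.19 and 21.9 FPKM. In bulk libraries such as these, fewer cells of a type and less RNA per cell cannot be told apart.

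All 7 members lie in 1 cluster of 264 kb on chromosome 11 (mm10, GENCODE vM21 positions 82951349 to 83215154), 5 on the plus strand and Slfn8 and Slfn9 on the minus strand. Windows of 300 bases at the RefSeq starts, 250 bases before and 50 bases after, are shown for the 6 members on which the comparisons turn: Slfn1, Slfn2 and Slfn4, high in granulocytes, Slfn8, higher in quiescent cells, and Slfn3 and Slfn9, which ran the other way. The windows come from RefSeq on GRCm38.p6, at chr11:83116570-83116869, plus strand for Slfn1, chr11:83064862-83065161, plus strand for Slfn2, chr11:83174936-83175235, plus strand for Slfn4, chr11:83191080-83191379, plus strand for Slfn3, chr11:83020761-83021060, minus strand for Slfn8 and chr11:82991781-82992080, minus strand for Slfn9. Each is written 5′ to 3′ on the strand of its gene. Capitals mark an ETS word (ACTTCCTG), E2F words (TTTGGCGC, TTTCCCGC, TTTGCCGC or TTTCGCGC) and the core of an interferon-stimulated response element (GAAA, any 2 bases and GAAA), each searched on both strands.
Slfn1: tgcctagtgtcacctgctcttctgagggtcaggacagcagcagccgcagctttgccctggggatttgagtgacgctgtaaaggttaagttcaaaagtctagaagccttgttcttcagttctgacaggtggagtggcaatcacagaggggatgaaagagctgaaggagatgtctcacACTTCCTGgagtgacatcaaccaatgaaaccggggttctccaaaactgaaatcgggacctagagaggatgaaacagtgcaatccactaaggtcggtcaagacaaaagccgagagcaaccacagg
Slfn2: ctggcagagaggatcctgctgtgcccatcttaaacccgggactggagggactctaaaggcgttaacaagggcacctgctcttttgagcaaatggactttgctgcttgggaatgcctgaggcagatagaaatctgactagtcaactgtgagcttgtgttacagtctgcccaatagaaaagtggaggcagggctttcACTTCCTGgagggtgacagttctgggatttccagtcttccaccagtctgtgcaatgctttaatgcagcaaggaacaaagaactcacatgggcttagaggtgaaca
Slfn4: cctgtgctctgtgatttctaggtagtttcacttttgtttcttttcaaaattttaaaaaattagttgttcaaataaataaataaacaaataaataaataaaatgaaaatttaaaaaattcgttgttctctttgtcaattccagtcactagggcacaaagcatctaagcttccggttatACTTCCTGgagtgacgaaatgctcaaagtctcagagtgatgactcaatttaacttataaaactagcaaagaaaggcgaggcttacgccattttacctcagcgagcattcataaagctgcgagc
Slfn3: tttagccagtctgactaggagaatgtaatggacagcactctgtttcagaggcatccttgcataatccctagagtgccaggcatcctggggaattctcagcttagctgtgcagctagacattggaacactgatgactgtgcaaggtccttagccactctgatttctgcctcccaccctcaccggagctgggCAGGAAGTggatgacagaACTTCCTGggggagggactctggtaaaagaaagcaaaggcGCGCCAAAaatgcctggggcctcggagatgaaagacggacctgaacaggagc
Slfn8: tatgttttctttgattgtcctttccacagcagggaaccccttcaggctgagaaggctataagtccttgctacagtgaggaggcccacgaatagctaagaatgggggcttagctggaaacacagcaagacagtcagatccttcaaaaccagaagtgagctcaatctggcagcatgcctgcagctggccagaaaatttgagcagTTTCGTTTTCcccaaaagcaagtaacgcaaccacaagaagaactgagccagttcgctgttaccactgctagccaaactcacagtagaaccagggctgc
Slfn9: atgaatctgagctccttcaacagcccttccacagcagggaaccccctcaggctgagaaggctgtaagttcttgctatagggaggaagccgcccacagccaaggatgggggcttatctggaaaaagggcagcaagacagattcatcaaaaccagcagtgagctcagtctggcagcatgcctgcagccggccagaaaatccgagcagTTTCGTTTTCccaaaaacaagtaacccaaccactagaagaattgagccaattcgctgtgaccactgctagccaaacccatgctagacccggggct

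The ETS word occurred in the 4 short and intermediate members, Slfn1, Slfn2, Slfn3 and Slfn4, and in 3.38% of 27025 mouse promoter windows of the same length. It lay on the plus strand 74 bases before the start in Slfn1, 55 in Slfn2 and 73 in Slfn4, whereas Slfn3 held it on both strands. In Slfn1 and Slfn4 it was part of an identical run of 15 bases, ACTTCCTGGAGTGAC, and in Slfn1 and Slfn2 of a run of 12, CACTTCCTGGAG. The interferon element core occurred in the long members: Slfn8 and Slfn9, shown above, and Slfn5 (GAAAAAGAAA, 155 to 146 bases before its start), against 3.49% of all windows. In Slfn8 and Slfn9 the match read TTTCGTTTTC at 48 and 45 bases before the start, and their windows shared a run of 20 bases, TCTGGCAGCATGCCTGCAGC. An E2F word occurred in Slfn3, as GCGCCAAA across its start, and in 2.32% of all windows. No 2 of these matches overlapped within a window. Another word, TTTGAA, the core of the cell-cycle homology region of mitotic genes, was found in Slfn1, Slfn4, Slfn5 and Slfn8 but also in 18.1% of all windows, and is not in capitals. These words were chosen after the sequences had been read, a match describes letters and not binding, and the absence of a match says nothing about a factor.

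Mature granulocytes held the highest level of 5 of the 7 members. Slfn4, the myeloid member, stood at 1127 FPKM in CKO and 1166 FPKM in control granulocytes, and between 0.302 and 1.24 FPKM in the 8 lymphoid libraries. Slfn1 stood at 519 and 558 FPKM in CKO and control granulocytes, against 0.280 to 4.54 FPKM in lymphoid cells. Slfn2 stood at 716 and 699 FPKM in the same granulocytes, against 6.67 to 190.0 FPKM in lymphoid cells. Every granulocyte library lay above every lymphoid library for each of the 3, and of the 3 Slfn2 alone reached 5 FPKM in a lymphoid library. The share of all genes separated in this way was not counted. In the fit below, 41.3% of 11715 genes tested were called higher in granulocytes. The long members Slfn8 (20.2 and 21.1 FPKM in CKO and control granulocytes, 1.53 to 12.8 FPKM in lymphoid cells) and Slfn5 (11.3 and 17.7 FPKM, against 0.478 to 3.44 FPKM) were also highest there, at far lower levels. Slfn3 (8.98 and 8.76 FPKM) and Slfn9 (3.90 and 4.02 FPKM) lay within their lymphoid ranges of 2.34 to 12.8 FPKM and 0.937 to 10.9 FPKM.

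In a fit of all 10 libraries with population and genotype as terms, granulocytes exceeded the mean of the 4 lymphoid populations for 5 members, where 41.3% of 11715 genes tested were called higher and 39.5% lower. The differences on the log2(FPKM + 1) scale were 9.41 for Slfn4 (SE 0.09, limma adjusted p = 9e-09), 7.88 for Slfn1 (SE 0.15, limma adjusted p = 3.7e-08) and 4.10 for Slfn2 (SE 0.25, limma adjusted p = 5.24e-06). Slfn5 differed by 2.72 (SE 0.28) and Slfn8 by 2.09 (SE 0.20), with limma adjusted p = 7.67e-05 and 5.04e-05. For Slfn3 the difference was 0.28 (limma adjusted p = 0.302) and for Slfn9 -0.04 (limma adjusted p = 0.912). Calls are common among all genes in this contrast, so the sizes say more than the count. Between CKO and control granulocytes the 7 members differed by -0.60 to 0.04 on the same scale, with Slfn5 at the low end and the other 6 between -0.10 and 0.04.

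**Figure D1:**
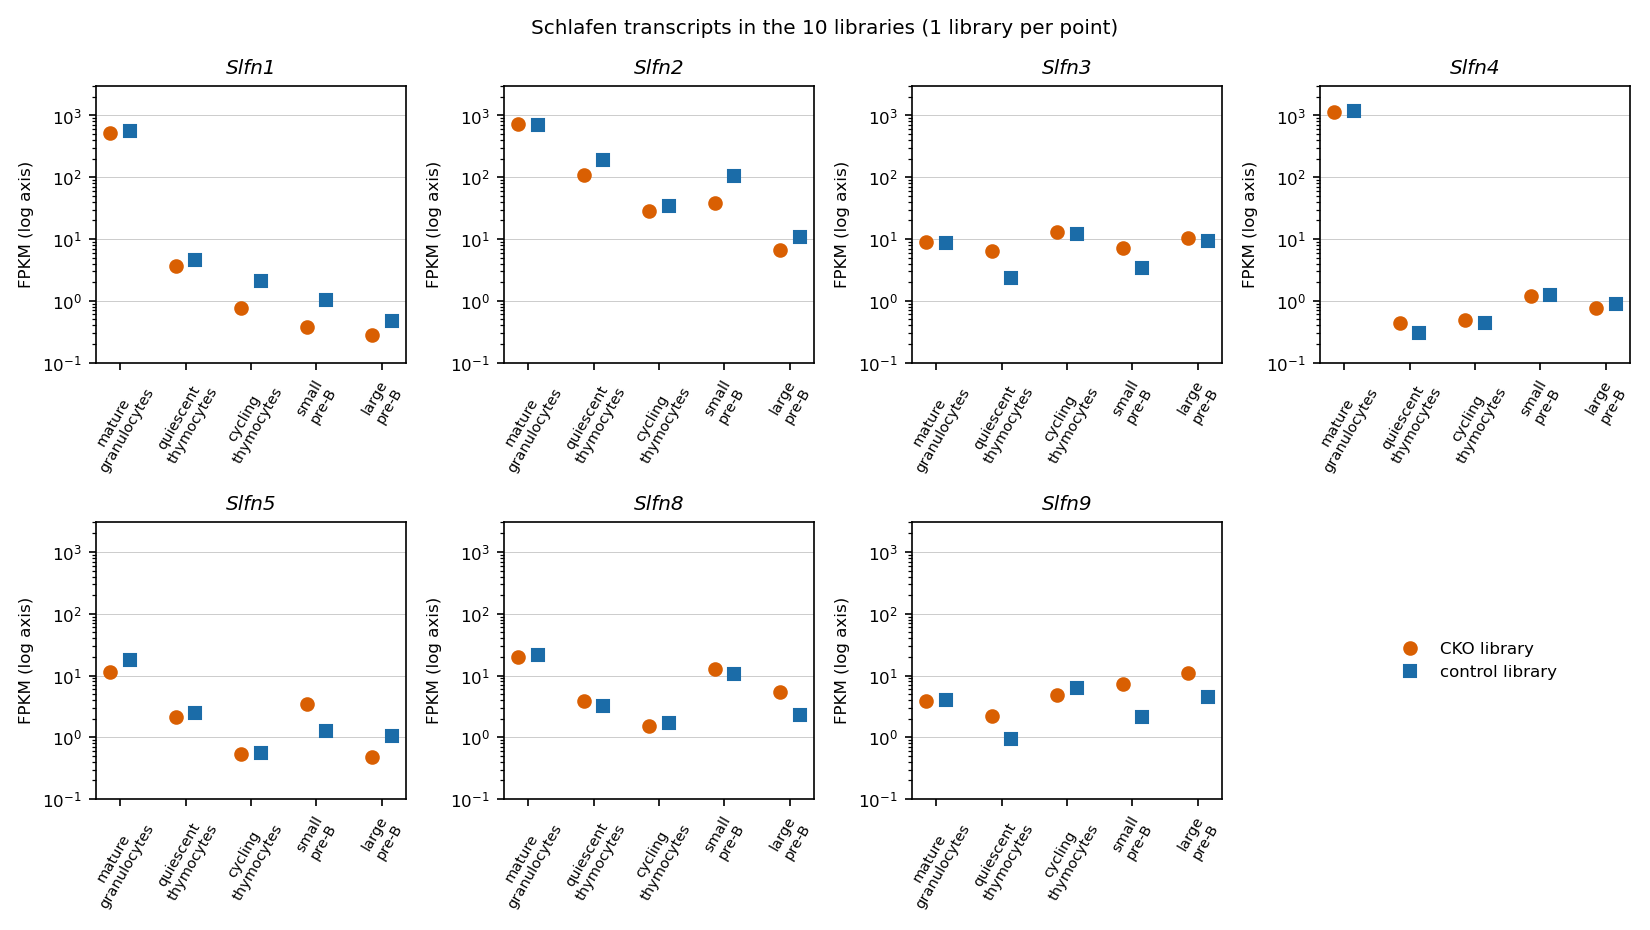
Levels of the 7 Schlafen genes (FPKM, log axis) in each of the 10 libraries, with CKO libraries as circles and control libraries as squares, 1 library per point. Slfn4 and Slfn1 stand at 519 FPKM or more in granulocytes and stay below 5 FPKM in every lymphoid library, while Slfn3 and Slfn9 stay between 0.937 and 12.8 FPKM in all 10.

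Within the lymphoid cells the order of populations differed between members. Slfn2 ran from quiescent thymocytes (110.5 and 190.0 FPKM in CKO and control) over small pre-B cells (38.7 and 105.7 FPKM) and cycling thymocytes (28.8 and 33.7 FPKM) down to large pre-B cells (6.67 and 10.8 FPKM), and each step in that order passed the test (limma adjusted p = 0.0158, 0.0286 and 0.00375). Slfn1 followed the order of quiescent thymocytes, cycling thymocytes, small and large pre-B cells, and of these steps that between the thymocyte populations was called (limma adjusted p = 0.00596). Slfn8 was highest in small pre-B cells, followed by large pre-B cells and quiescent thymocytes, which lay 0.01 apart on the log2 scale (limma adjusted p = 0.987), and was lowest in cycling thymocytes. Slfn3 was highest in cycling thymocytes and Slfn9 in large pre-B cells. Granulocytes fell within both orders, after large pre-B cells for Slfn3 and after small pre-B cells for Slfn9. With granulocytes in place, none of the steps between neighbours passed the test (limma adjusted p = 0.0628 to 0.922). Both ends of that range are Slfn9 steps that involve granulocytes. Steps directly between lymphoid populations gave limma adjusted p = 0.42 and 0.438 for Slfn3, and 0.569 and 0.501 for Slfn9. For Slfn5 and Slfn4 no step between lymphoid neighbours passed the test either. Over all members and all 10 pairs of populations, 46 of 70 contrasts were called. Over all genes the share called was 76.4%, 77.7%, 71.8% and 77.7% for granulocytes against quiescent thymocytes, cycling thymocytes, small pre-B cells and large pre-B cells. It was 38.4% for quiescent against cycling thymocytes, 61.7% and 70.4% for quiescent thymocytes against small and large pre-B cells, 58.1% and 51.3% for cycling thymocytes against the same, and 41.2% for small against large pre-B cells.

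Thymocytes as a whole exceeded pre-B cells for the short members, by 1.19 for Slfn1 (SE 0.13, limma adjusted p = 0.000243) and by 1.46 for Slfn2 (SE 0.22, limma adjusted p = 0.00098). They were lower for Slfn8 by -1.14 (SE 0.18, limma adjusted p = 0.0011) and for Slfn4 by -0.51 (SE 0.08, limma adjusted p = 0.00149). In this contrast 33.2% of 11715 genes were called higher in thymocytes and 36.5% lower. The Slfn4 difference concerned values of at most 1.24 FPKM. Relative to their level in granulocytes, the 2 small pre-B libraries held 0.106% (CKO) and 0.107% (control) for Slfn4, while the median over the granulocyte markers was 0.104% in the CKO and 0.135% in the control library. S100a8, S100a9 and Ngp, listed at 0 in control granulocytes, were left out of the markers for this comparison. The single markers ran from 0.0552% to 2.19% in the CKO and from 0.0739% to 1.498% in the control library. In large pre-B cells Slfn4 stood at 0.0687% and 0.0770% in CKO and control, the marker medians at 0.0955% and 0.170%, and the highest marker, Mpo, which encodes myeloperoxidase, at 76.3% and 74.8%. In thymocytes Slfn4 stood at 0.0259% to 0.0440% of granulocytes and the marker medians at 0.00750% to 0.00989%. Whether granulocyte RNA contributes to the lymphoid Slfn4 values was not tested. Slfn2 in the same small pre-B libraries stood at 5.40% and 15.1% of its granulocyte level.

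The make-up of the family signal differed by population as well. The 7 members summed to 2407 and 2474 FPKM in CKO and control granulocytes, where Slfn4 made up 46.8% and 47.1% of the sum. In quiescent thymocytes Slfn2 made up 85.5% of the sum in the CKO library and 93.2% in the control library. Cycling thymocytes divided the signal between Slfn2 (57.9% and 59.5%), Slfn3 (25.6% and 21.2%) and Slfn9 (9.83% and 11%). Large pre-B cells were the population in which Slfn2 was below the sum of Slfn3 and Slfn9: Slfn2 made up 19.2% in the CKO and 36.9% in the control library, Slfn3 29.7% and 31.7%, and Slfn9 31.4% and 15.2%. In small pre-B cells Slfn2 made up 54.4% of the CKO sum and 84.4% of the control sum. Slfn8 came next there, at 18.0% and 8.30% in CKO and control, and made up 15.3% and 7.82% in large pre-B cells. In the CKO small pre-B library Slfn9 (10.3%) and Slfn3 (10.2%) followed.

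**Figure D2:**
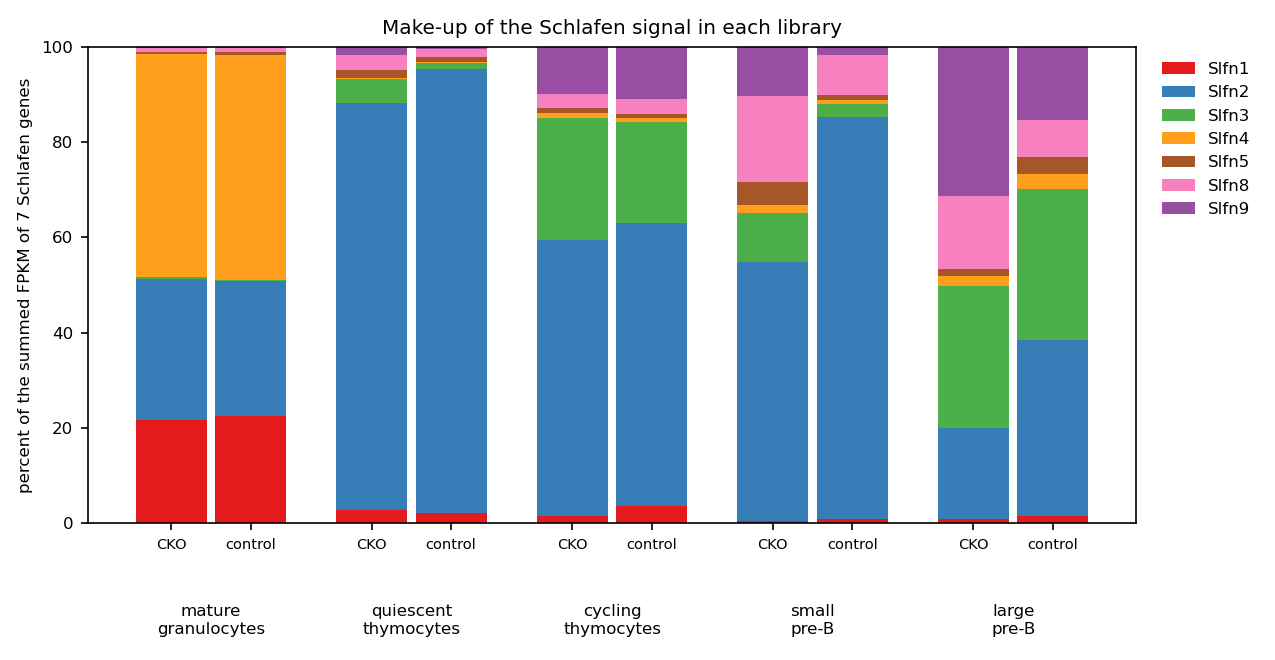
Percent of the summed FPKM of the 7 Schlafen genes that each member contributes, in each library, with the CKO library left of its control. Slfn4, Slfn2 and Slfn1 fill the granulocyte bars, and Slfn2 fills 85.5% and 93.2% of the quiescent thymocyte bars. Slfn3 and Slfn9 take up large shares in the cycling populations, and 10.2% and 10.3% of the CKO small pre-B bar.

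Quiescent and cycling cells were compared next, with a difference for each lineage and genotype pair taken within the pair. In thymocytes Slfn2, Slfn1, Slfn5 and Slfn8 were called higher in quiescent cells, and Slfn3 and Slfn9 were called lower. That is 4 members higher and 2 lower of 7, where 25.2% of 11126 genes were called higher and 19.7% lower. In pre-B cells Slfn2 and Slfn8 were called higher in the small cells, taken as the quiescent state. No member passed the test for being lower, where 25.6% of the genes were called higher and 21.8% lower. Many genes move with quiescence, so these counts alone do not set the family apart. The 2 contrasts are not equal in depth. Top2a stood at 144 and 62.3 FPKM in CKO and control small pre-B cells, and Mki67 at 75.5 and 35.0 FPKM. In quiescent thymocytes Top2a stood at 52.0 and 3.27 FPKM and Mki67 at 48.3 and 1.70 FPKM.

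Slfn2, the quiescence gene, stood at 110.5 FPKM in quiescent CKO thymocytes and 28.8 FPKM in cycling CKO thymocytes, and at 190.0 and 33.7 FPKM in the control pair. In pre-B cells it stood at 38.7 FPKM in small and 6.67 FPKM in large CKO cells, and at 105.7 and 10.8 FPKM in the control pair. All 4 quiescent libraries lay above the cycling library of their pair, by 3.83-fold to 9.78-fold, and the 2 libraries of each state did not overlap in either lineage. Over all genes the states did not overlap, with quiescent above cycling, for 41.7% in thymocytes and 40.2% in pre-B cells, and with quiescent below cycling for 31.2% and 35.0%. The fitted difference was 2.18 in thymocytes (SE 0.23, limma adjusted p = 0.0064) and 2.77 in pre-B cells (SE 0.23, limma adjusted p = 0.00256). Without the control pair of the lineage the value was 1.90 in thymocytes (limma adjusted p = 0.0576) and 2.37 in pre-B cells (limma adjusted p = 0.0652). Without the control pair of a lineage no member was called in that lineage.

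Slfn1, the other short member, was measured at 3.71 and 4.54 FPKM in quiescent CKO and control thymocytes and at 0.768 and 2.06 FPKM in cycling ones, a fitted difference of 1.13 (SE 0.19, limma adjusted p = 0.00915). In pre-B cells Slfn1 did not exceed 1.04 FPKM in any library and its small and large libraries overlapped (difference 0.29, limma adjusted p = 0.246). Slfn5, a long member that in human cells has been linked to repression of interferon responses, stood at 2.12 and 2.46 FPKM in quiescent CKO and control thymocytes and at 0.534 and 0.557 FPKM in cycling ones. Its difference of 1.09 passed narrowly (SE 0.33, limma adjusted p = 0.0447). That call ended without the CKO or the control thymocyte pair (limma adjusted p = 0.139 and 0.23), with no filter on low values (0.128), with a pseudocount of 5 FPKM (0.057) and after rescaling by median ratios (0.0751, with a difference of 1.04). In pre-B cells Slfn5 differed by 1.59 in the CKO pair (3.44 FPKM in small and 0.478 FPKM in large cells) and by 0.14 in the control pair (1.28 and 1.06 FPKM), which gave 0.87 in the fit (limma adjusted p = 0.081).

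Slfn8, a long member, followed Slfn2 in direction in both lineages at lower levels. It stood at 12.8 and 10.4 FPKM in CKO and control small pre-B cells and at 5.33 and 2.29 FPKM in the large ones. The 2 states did not overlap, as for 40.2% of all genes with quiescent above cycling in pre-B cells. The difference was 1.46 (SE 0.20, limma adjusted p = 0.00547). In thymocytes the values were 3.92 and 3.19 FPKM in quiescent CKO and control cells against 1.53 and 1.69 FPKM in cycling cells, a difference of 0.80 (SE 0.20, limma adjusted p = 0.0244). That thymocyte call ended without the control pair (limma adjusted p = 0.112) and without the CKO pair (0.162), and also with no filter on low values (0.0834) and without the block (0.0864).

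Slfn3 and Slfn9 ran the other way. Slfn3, an intermediate member known in the rat and mouse gut from the differentiation of intestinal epithelium, stood at 6.39 and 2.34 FPKM in quiescent CKO and control thymocytes, against 12.8 and 12.0 FPKM in cycling ones. Slfn9, a long member, stood at 2.24 and 0.937 FPKM in quiescent CKO and control thymocytes, against 4.90 and 6.22 FPKM in cycling ones. For both genes the states did not overlap, as for 31.2% of all genes with quiescent below cycling in thymocytes. The fitted differences were -1.43 for Slfn3 (SE 0.30, limma adjusted p = 0.0158) and -1.38 for Slfn9 (SE 0.26, limma adjusted p = 0.012). The CKO pair showed the smaller difference for both, -0.90 against -1.96 in the control pair for Slfn3 and -0.86 in the CKO pair against -1.90 in the control pair for Slfn9. Without the control pair neither was called (limma adjusted p = 0.133 for Slfn3 and 0.0847 for Slfn9), nor with no filter on low values (0.0636 and 0.0526), and Slfn9 was not called without the block (0.101).

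In pre-B cells Slfn3 stood at 7.25 and 3.45 FPKM in small CKO and control cells, against 10.3 and 9.27 FPKM in large ones, and Slfn9 at 7.35 and 2.15 FPKM in small cells, against 10.9 and 4.45 FPKM in large ones. Each large library lay above the small library of its own pair for both genes, while for Slfn9 the CKO small library exceeded the control large library. The differences of -0.83 for Slfn3 (SE 0.30, limma adjusted p = 0.0679) and -0.65 for Slfn9 (SE 0.26, limma adjusted p = 0.0879) did not pass the threshold of 0.05. Both passed it when either thymocyte pair was left out of the fit (limma adjusted p = 0.0263 to 0.0351) or with a pseudocount of 5 FPKM (0.0465 and 0.0457). Slfn4 differed by -0.11 in thymocytes (limma adjusted p = 0.515) and by 0.27 in pre-B cells (limma adjusted p = 0.11), with no lymphoid library above 1.24 FPKM. Small pre-B cells alone carried Slfn4 past the 1 FPKM filter of this fit, which favours a positive difference in pre-B cells.

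**Figure D3:**
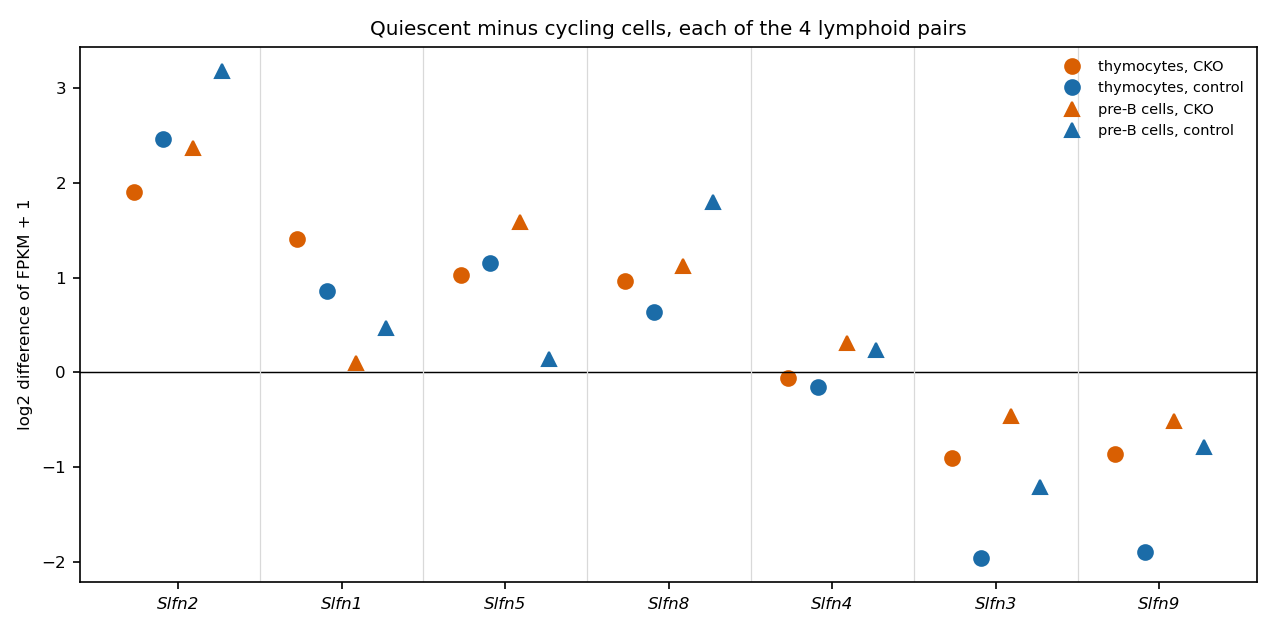
Difference between quiescent and cycling cells on the log2(FPKM + 1) scale for each of the 4 lymphoid pairs, with thymocyte pairs as circles and pre-B pairs (small minus large) as triangles, 1 pair per point. All 4 points lie above 0 for Slfn2, Slfn1, Slfn5 and Slfn8 and below 0 for Slfn3 and Slfn9. Slfn1 lies at 0.10 in the CKO pre-B pair and Slfn5 at 0.14 in the control pre-B pair. The share of all genes with the same sign in all 4 pairs is not given.

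Whether the quiescence difference itself differed between lineages was tested as a contrast of the same fit, and no member was called, where 6.84% of all genes were. The limma adjusted p ranged from 0.113 to 0.783. Slfn1, with 0.85 more in thymocytes (SE 0.26), was the 1 member under an unadjusted p of 0.05, a level that 28.2% of all genes reached. A lack of a call does not show that the lineages act alike: for Slfn2 the difference between lineages was -0.59 with an SE of 0.33, and for Slfn8 -0.66 with an SE of 0.28.

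CKO and control cells were compared within each population, where a single library on each side allows no test. Members with at least 5 FPKM in 1 or both libraries of a population were considered, and a difference means 2-fold or more on the log2(FPKM + 1) scale. This held for 4 of 19 member and population combinations considered, of 35 in all. With a pseudocount of 5 FPKM, Slfn2 in small pre-B cells alone remained, and with a floor of 10 FPKM that difference and Slfn9 in large pre-B cells. The 4 were Slfn2, lower in small pre-B cells, Slfn3, higher in quiescent thymocytes, and Slfn9, higher in small and in large pre-B cells. The share of all genes past the same fold in the same direction was 1.78% lower and 4.52% higher in small pre-B cells, 3.66% higher in quiescent thymocytes and 0.871% higher in large pre-B cells. In granulocytes and cycling thymocytes, where 2.33% and 0.954% of all genes differed in either direction, no member did.

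Slfn2 stood at 38.7 FPKM in CKO and 105.7 FPKM in control small pre-B cells, a log2 difference of -1.43 and a ratio of 0.366. It was also lower in the CKO library in quiescent thymocytes (110.5 and 190.0 FPKM, -0.78), large pre-B cells (6.67 and 10.8 FPKM, -0.62) and cycling thymocytes (28.8 and 33.7 FPKM, -0.22), but not in granulocytes (716 and 699 FPKM, 0.04). Slfn1 likewise was lower in the CKO library of all 4 lymphoid populations, at values that reached 5 FPKM in none of them. Over all genes, 14.0% were lower in 4 of 4 lymphoid pairs and 14.0% higher. Slfn3 was the member higher in all 4: 6.39 and 2.34 FPKM in CKO and control quiescent thymocytes (a log2 difference of 1.14), 7.25 and 3.45 FPKM in small pre-B cells (0.89), and 10.3 and 9.27 FPKM in large pre-B cells (0.14). In cycling thymocytes Slfn3 stood at 12.8 and 12.0 FPKM, a difference of 0.09.

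Slfn9 stood at 7.35 FPKM in CKO and 2.15 FPKM in control small pre-B cells (a log2 difference of 1.41), and at 10.9 and 4.45 FPKM in CKO and control large pre-B cells (1.13). In quiescent thymocytes it was at 2.24 and 0.937 FPKM, under the floor for a call (0.74), and in cycling thymocytes it was lower in the CKO library (4.90 and 6.22 FPKM, -0.29). Slfn8 showed its largest difference in large pre-B cells, 5.33 FPKM in CKO and 2.29 FPKM in control cells (0.94, just under 2-fold on this scale). Slfn5 was at 3.44 FPKM in CKO and 1.28 FPKM in control small pre-B cells (0.96) and at 0.478 and 1.06 FPKM in large pre-B cells (-0.48), all below the 5 FPKM floor.

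Other transcripts differed in the same libraries. All 22 genes of a list of proliferation genes were higher in CKO than in control quiescent thymocytes, by a median of 2.61 on the log2 scale and 2-fold or more for 19, and all 22 were higher in CKO small pre-B cells, 13 at least 2-fold (median 1.08). In cycling thymocytes and large pre-B cells none of the 22 differed by 2-fold (medians 0.08 and 0.13). Of the 7 pre-B markers 2 were above and 5 below control in CKO small pre-B cells, with sums of 2841 and 3545 FPKM in CKO and control. The 2 were Vpreb1 (418 and 132 FPKM in CKO and control) and Igll1 (440.0 and 107 FPKM), which encode the surrogate light chain of early pre-B cells. All 7 natural killer markers and all 6 plasmacytoid dendritic cell markers were higher in the CKO small pre-B library, and so were 5 of 7 monocyte markers, while all 9 granulocyte markers were lower (455 and 602 FPKM in sum). In large pre-B cells all 7 natural killer markers were again higher in CKO (108 and 56.9 FPKM in sum) and all 7 monocyte markers lower (113 and 275 FPKM). The part of these genes and cell types in the Slfn2, Slfn3, Slfn5, Slfn8 and Slfn9 differences was not tested.

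**Figure D4:**
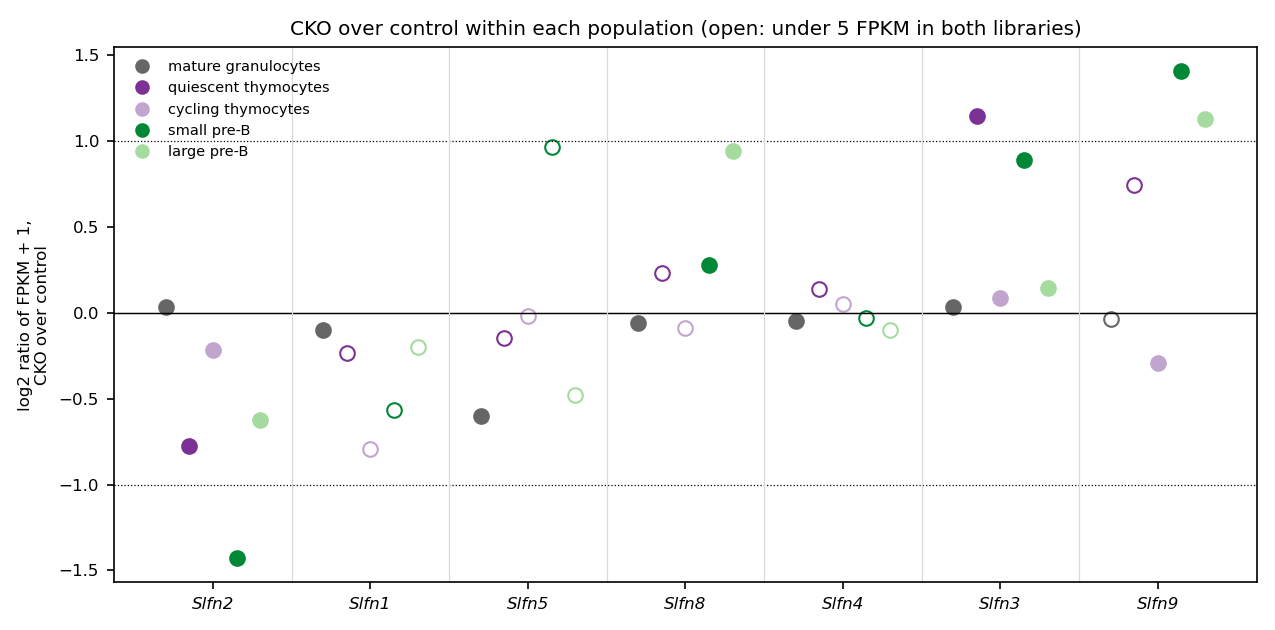
CKO over control on the log2(FPKM + 1) scale for each member in each population, 1 pair of libraries per point, with members below 5 FPKM in both libraries as open points and dotted lines at 2-fold. Slfn2 in small pre-B cells lies at -1.43, and Slfn9 in small and large pre-B cells and Slfn3 in quiescent thymocytes lie above the upper line.

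In a fit of the 8 lymphoid libraries blocked on population, no member was called between CKO and control cells, where 0.036% of 11126 genes were. The fitted differences were -0.76 for Slfn2 (SE 0.19, limma adjusted p = 0.227), -0.45 for Slfn1 (SE 0.14, limma adjusted p = 0.253), 0.57 for Slfn3 (SE 0.20, limma adjusted p = 0.272) and 0.75 for Slfn9 (SE 0.28, limma adjusted p = 0.279). These 4 members were under an unadjusted p of 0.05, as were 16.8% of all genes. For Slfn8, Slfn5 and Slfn4 the differences were 0.34, 0.08 and 0.02 (limma adjusted p = 0.359 to 0.947). Over all 5 populations no member was called either, where 0.0512% of 11715 genes were. There 3 members were under an unadjusted p of 0.05, as were 16.8% of all genes. Without the small pre-B pair, whose libraries differed in markers of other cells, the Slfn2 difference was -0.54 (limma adjusted p = 0.429) and the Slfn9 difference 0.53 (limma adjusted p = 0.493).

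The difference between quiescent and cycling cells was smaller in the CKO than in the control pair of both lineages for Slfn2, Slfn3 and Slfn9. For Slfn2 it was 1.90 in the CKO and 2.46 in the control thymocyte pair, and 2.37 and 3.18 in the pre-B pairs. For Slfn3 the pre-B pairs gave -0.46 in CKO and -1.21 in control, and for Slfn9 -0.51 and -0.79. Tested as an interaction over the 8 lymphoid libraries, the change of the state difference was -0.68 for Slfn2 (SE 0.33), 0.90 for Slfn3 (SE 0.35) and 0.66 for Slfn9 (SE 0.44), with limma adjusted p = 1.0 for each. No member was called and none was under an unadjusted p of 0.05, against 0.00899% and 2.39% of all genes. This fit gave thymocytes and pre-B cells a shared state effect, so any lineage difference in that effect stayed in the residual spread. With that spread and 2 residual degrees of freedom the test has little precision, as the standard errors show.

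Lists of genes known for interferon responses, quiescence and proliferation give the surroundings of these values. Of 42 interferon-stimulated genes tested, 25 were called higher and 1 lower in small than in large pre-B cells. Their median was 0.57, against 0.04 over all genes, of which 25.6% were called higher. In quiescent against cycling thymocytes 11 were called higher and 1 lower (median 0.25, against 0.06). That count lay near the 25.2% of all genes called higher there. The interferon-induced GTPase Igtp had the largest difference of the list in thymocytes (1.68, limma adjusted p = 0.00647). In pre-B cells it was Samhd1, a dNTP hydrolase (2.17, limma adjusted p = 0.00224), which was not called in thymocytes (-0.21, limma adjusted p = 0.264). In granulocytes 34 of 44 of these genes were called higher and 3 lower than in lymphoid cells (median 2.03, against -0.01). Over all genes 41.3% were called higher. Between CKO and control none passed the test over the 4 lymphoid populations (median 0.25). Within populations 10 of 32 considered were at least 2-fold higher and 1 lower in CKO small pre-B cells, against 4.52% and 1.78% of all genes. In large pre-B cells 4 of 27 were higher and none lower, against 0.871% of all genes higher, and none passed that fold in granulocytes or thymocytes. Of 15 genes of interferon receptors and signalling, 8 were called higher and 1 lower in quiescent thymocytes. In small pre-B cells 8 were called higher and none lower.

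Of 20 lymphocyte quiescence genes, 15 were called higher and 1 lower in small than in large pre-B cells. Their median was 0.99, against 0.04 and 25.6% called higher over all genes. In thymocytes 6 were called higher and 2 lower, with a median of 0.28. Over all genes the median there was 0.06 and 25.2% were called higher, so that count lay near the background. Btg1, an antiproliferative gene, rose by 2.24 in small pre-B cells (limma adjusted p = 0.00178) and by 0.70 in quiescent thymocytes (limma adjusted p = 0.00905), the same direction as Slfn2. Cdkn1b, the p27 inhibitor of cyclin-dependent kinases, rose by 1.04 (limma adjusted p = 0.00445) and 0.64 (limma adjusted p = 0.0127). Btg2, a relative of Btg1, rose by 2.24 in small pre-B cells (limma adjusted p = 0.00178) and was not called in thymocytes (0.29, limma adjusted p = 0.104). The largest difference of the list in thymocytes ran against Slfn2: Cdkn2c, the p18 inhibitor of cyclin-dependent kinases, was at -1.31 (limma adjusted p = 0.0129). Proliferation genes, which Slfn3 and Slfn9 followed in direction, were called lower for 22 of 22 in quiescent thymocytes (median -3.21). In small pre-B cells 10 of 22 were called lower (median -1.49). Over all genes 19.7% and 21.8% were called lower in these contrasts. Top2a (-1.99) and Rrm2 (-1.36) were lower in small pre-B cells without passing the test (limma adjusted p = 0.0912 and 0.176). The change of the state difference with genotype had a median of 1.79 over the proliferation genes, none of which was called, against -0.03 over all genes.

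The genes whose pattern over the 10 libraries was most like each member, among 9638 genes at 5 FPKM or more in at least 2 libraries, differed between members. For Slfn2 they were Orai2, a calcium channel subunit, and Arid3b, a DNA-binding protein (Pearson r = 0.995 for both), followed by Ccndbp1, Gabarapl2 and Stxbp3a (0.987 to 0.991). Orai2 stood at 102.7 and 97.3 FPKM in CKO and control granulocytes, at 42.3 and 50.3 FPKM in quiescent thymocytes and at 7.75 and 9.47 FPKM in large pre-B cells. For Slfn8 they were Parp9, an ADP-ribosyltransferase of interferon-treated cells (0.988), Irf9, a subunit of the interferon-activated factor ISGF3 (0.982), Glb1l, Uba7, which activates ISG15, and Nudt16. For Slfn3 they were H2afz, the histone variant H2A.Z (0.976), Rdbp, the kinetochore gene Casc5, the cytokinesis kinase gene Cit and Plk4, which governs centriole duplication (0.969). For Slfn9 they were Rbl1, which encodes p107 (0.923), Brip1, Lmnb2, Zfp161 and Xpo1.

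The genes nearest to Slfn2 and Slfn8 had their highest level in granulocytes, and so did those nearest to the other 3 members: Cxcr2, a chemokine receptor of neutrophils, Itgb2l, Sfxn5, Fpr2 and Gcnt2 for Slfn4, Slc27a4, Rhog, Ncoa4 and Twf2 for Slfn1, and Mfsd11, Phf21a, Neu1, Tmem181c-ps and Golga2 for Slfn5. The granulocyte libraries stand far from the rest for these members. Slfn4, Slfn1 and Slfn5 met the 5 FPKM filter through granulocytes alone, so nearest genes that are high in granulocytes were set in advance. The nearest genes were picked over all 10 libraries, so their values in the lymphoid libraries are not independent of that choice. Those nearest to Slfn4 did not exceed 0.894 FPKM in any lymphoid library. In the 8 lymphoid libraries alone, an alternative chosen after seeing the data, r was 0.932 to 0.942 for the 5 genes nearest to Slfn4 and 0.940 to 0.967 for the 4 named for Slfn1. For the 5 genes nearest to each it was 0.967 to 0.994 for Slfn2, 0.951 to 0.982 for Slfn8, 0.975 to 0.979 for Slfn3, 0.914 to 0.941 for Slfn9 and 0.812 to 0.912 for Slfn5. Among members, Slfn3 and Slfn9 were alike (0.80 over 10 libraries and 0.82 over the 8 lymphoid ones), whereas Slfn2 ran against Slfn9 (-0.57 and -0.86) and against Slfn3 (-0.35 and -0.78). Slfn1 and Slfn4 were alike over 10 libraries (0.96) and opposed over the lymphoid ones (-0.74), at lymphoid levels of a few FPKM or less. The libraries of a genotype share 1 pool of mice and those of a lineage share their cells, so these values describe the 10 libraries.

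Neighbours in the cluster differed in pattern. Slfn4 and Slfn3 are adjacent and on the same strand, with starts at 83175186 and 83191330, and differed by 9.41 and 0.28 between granulocytes and lymphoid cells. Slfn9 (82978390 to 82991830) and Slfn8 (83002158 to 83020810) are adjacent on the minus strand, and their quiescence differences had opposite signs in both lineages. Slfn5 (82951349 to 82964840), Slfn2 (83065112 to 83070678) and Slfn1 (83116849 to 83122670) lie at the left edge and in the middle. Protein-coding genes close to the cluster that could be tested included Rffl, Nle1 and Ap2b1. Between quiescent and cycling thymocytes Ap2b1 was lower by -0.54 (limma adjusted p = 0.0174), and Rffl (0.03) and Nle1 (-0.04) were not called. Between small and large pre-B cells Rffl was higher by 0.47 (limma adjusted p = 0.0456) and Nle1 lower by -0.78 (limma adjusted p = 0.0195), and Ap2b1 (0.07) was not called. Granulocytes exceeded lymphoid cells by 3.94 for Rffl and 0.60 for Ap2b1 and were lower by -2.06 for Nle1 (limma adjusted p = 1.33e-07, 0.00126 and 7.57e-05). Slfn10-ps, a pseudogene between Slfn8 and Slfn2, was measured at 0.693 to 2.08 FPKM. It was not called for quiescence in either lineage (0.10 in thymocytes and -0.25 in pre-B cells). Slfn14-ps (0.0225 to 0.782 FPKM) and Slfnl1 (at most 0.115 FPKM, and listed at 0 in 2 libraries) were low in every library.

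**Figure D5:**
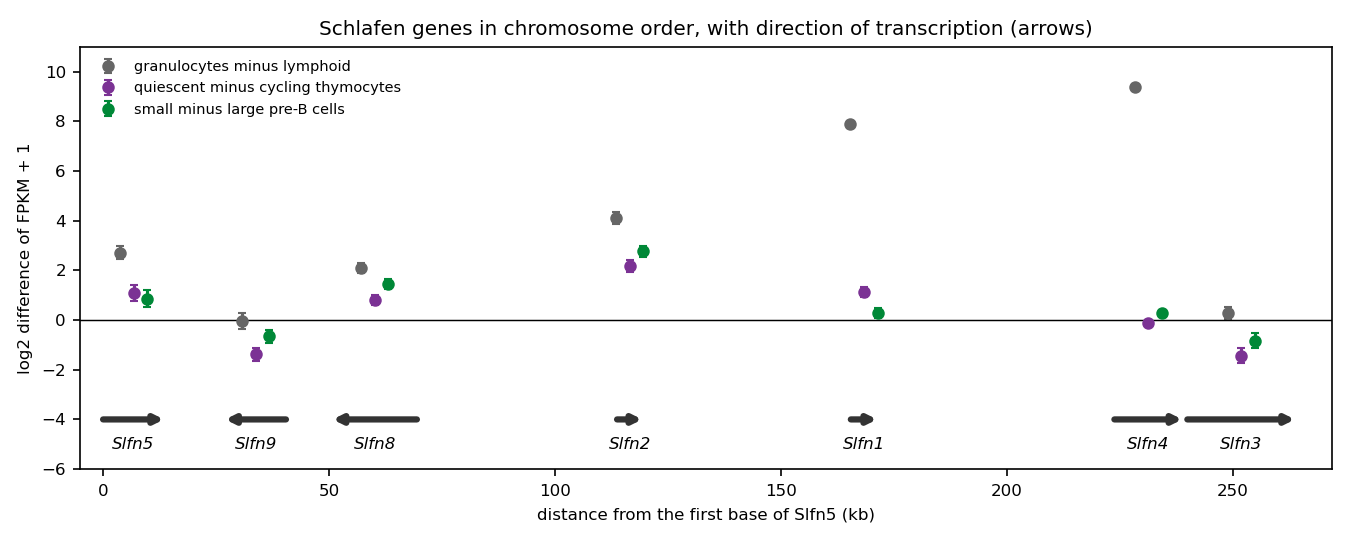
Schlafen genes along the cluster (distance from the first base of Slfn5 in kb, arrows for the direction of transcription) with their log2(FPKM + 1) differences for granulocytes minus lymphoid cells, quiescent minus cycling thymocytes and small minus large pre-B cells, error bars being the standard error of the limma fit. Slfn4 at 9.41 stands beside Slfn3 at 0.28, and Slfn8 and Slfn9, also neighbours, lie on opposite sides of 0 for both quiescence contrasts.

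Members share stretches of transcript, which could let reads be assigned to the wrong gene. Of the words of 50 bases in the exons of Slfn8, 14.6% also occurred in another Schlafen gene, with 9.3% shared with Slfn9 and 10.1% with Slfn10-ps. The share was 11.2% for Slfn9, 8.15% for Slfn4, 7.39% for Slfn3, 4.27% for Slfn2 and 0.606% for Slfn1, and Slfn5 shared none. All shared words of Slfn3 and Slfn2 also occurred in Slfn4, which stood at 1127 and 1166 FPKM in granulocytes, so the granulocyte level of Slfn3 in particular is uncertain. Slfn5 overlaps the antisense gene Slfn5os and Slfn2 overlaps the antisense gene Gm20234, and the labels do not say whether reads were counted by strand.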

How the data were processed

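The 10 libraries were sequenced from total RNA, 1 per population and genotype, each from 2 pooled mice. The submitters' processing notes list TopHat2 2.0.8b, Cuffdiff 2.1.1 and the mm10 build but give them no role. The deposited values are read as FPKM, since the authors' files name no unit. Each file held 23179 rows; 201 repeated another exactly, and for 47 symbols left on several rows that of the highest mean was used. Depth is unknown: at most 6.38% of low genes lay at the commonest ratio between libraries, so fragment counts could not be recovered.

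Tests were run with limma-trend (limma 3.58.1 in R 4.3.3) on log2(FPKM + 1), which understates changes of low genes, for genes at 1 FPKM or more in at least 2 fitted libraries, with Benjamini-Hochberg adjustment over all genes and a threshold of 0.05. Quiescence was fitted in 8 lymphoid libraries with a block per lineage and genotype pair (2 residual degrees of freedom), genotype with population as a block (3 or 4), and populations with genotype as a covariate (4). The change of quiescence with genotype was fitted with the same block and a state effect shared by the lineages. The fits were also run on simulated data with independent noise of the same spread for every gene. Those data held no shared pool effect and no extra noise at low values, so the run does not check the fits for either. Since all 5 libraries of a genotype come from 1 pool of 2 mice, the spread between animals is not in the p-values. A comparison of CKO with control within a population has no replicate check.

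Members, gene lists, markers and tests were chosen with earlier results of these data known. Named genes were all members, other Slfn symbols, neighbours, the 5 most similar genes per member (predicted genes, receptor and immunoglobulin segments, sex-linked and small RNA genes skipped), and, from lists, those with the highest mean or the largest change. A few genes that these rules name are not reported here. Alternatives were pseudocounts of 0.1 and 5 FPKM, other filters, rescaling by median ratios, no block, and leaving out each pair of libraries. Tables were handled in pandas 2.3.3 and numpy 2.4.6 under Python 3.11.15, and figures drawn in matplotlib 3.10.9. Gene positions are from GENCODE vM21, and promoter windows from RefSeq on GRCm38.p6, matched by symbol for all 7 members.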

Additional observations from a re-analysis of the deposited data

Results flagged for a closer look

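For Slfn4 the difference between quiescent and cycling cells was negative in both thymocyte pairs (-0.06 in CKO and -0.15 in control) and positive in both pre-B pairs (0.31 and 0.24), a contrast of -0.38 between the lineages. The test of that contrast did not pass (limma adjusted p = 0.212). All Slfn4 values concerned lie between 0.302 and 1.24 FPKM.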

How the results depend on the processing

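The count of 5 members higher in granulocytes was the same under all 10 alternatives, and the 4 members called between thymocytes and pre-B cells became 3 to 5 when a population was left out. No alternative run called a member between CKO and control in the fits over populations, or for a change of the quiescence difference with lineage or genotype. The 6 calls in thymocyte quiescence became 2 with no filter on low values and ranged from 0, without the control thymocyte pair, to 6 when pairs of libraries were left out. The 2 calls in pre-B cells became 4 with a pseudocount of 5 FPKM and ranged from 0, without the control pre-B pair, to 4. Over all genes the calls went with them: 4 instead of 4997 without the control thymocyte pair and 3 instead of 5277 without the control pre-B pair, against 3214 and 1426 without the CKO pair of the lineage. Elsewhere the counts over all genes ranged over the alternatives from 0 to 883 around 761 for the change with lineage (0 with no filter), from 0 to 82 around 1 for the change with genotype, and from 0 to 10 around 4 and 1 to 9 around 6 for CKO against control in 4 and 5 populations. The 46 calls over pairs of populations became 25 to 31 without a population, which leaves fewer pairs. The 4 differences between CKO and control within a population became 1 with a pseudocount of 5 FPKM and 2 at 10 FPKM or more. The direction of some small differences, none of them called, turned when pairs were left out, and the cause was not tested. Between lineages Slfn5 (0.22) ranged from -0.50 to 0.94. For the change of the quiescence difference with genotype, Slfn1 (0.09) ranged from -0.56 to 0.75, Slfn4 (0.08) from -0.12 to 0.26 and Slfn8 (-0.17) from -0.75 to 0.40. Between CKO and control over 4 populations, Slfn4 (0.02) ranged from -0.026 to 0.053 and Slfn5 (0.08) from -0.22 to 0.26. Over 5 populations, Slfn4 (0.0024) ranged from -0.032 to 0.027, with -0.0084 at a pseudocount of 5 FPKM, and Slfn5 (-0.06) from -0.31 to 0.078. Between granulocytes and lymphoid cells, Slfn9 (-0.04) ranged from -0.38 to 0.18 and was 0.023 at a pseudocount of 0.1. Between thymocytes and pre-B cells, Slfn3 (0.01) ranged from -0.70 to 0.73, with -0.012 at a pseudocount of 0.1 and -0.055 after rescaling, Slfn5 (-0.06) from -0.61 to 0.48 and Slfn9 (-0.67) from -1.36 to 0.021. The labels carry no replicate numbers to block on, and the fits take differences within pairs of libraries as described. With depth unknown, no counting error can be given for values near 1 FPKM.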
